A study of Mus musculus with 15 samples.

Results

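The 10 genes described here make up the pathway by which a cell shows fragments of its own proteins on MHC class I molecules. They are the class I heavy chains H2-K1 and H2-D1, their light chain B2m, the peptide transporter genes Tap1 and Tap2, the loading chaperone gene Tapbp, the immunoproteasome subunit genes Psmb8, Psmb9 and Psmb10, and the trimming peptidase gene Erap1. Members were chosen by name, and each was read from the array probes whose RefSeq transcript belongs to that gene. All 10 were found, through 14 probes, among 23462 genes that the named probes cover. Of these probes, 13 passed the filter on dim signal. The exception was the second of the Tap2 probes, which was well above background on 3 of 15 arrays. For H2-K1, Tap1, Tap2 and Tapbp, which have several probes, the brightest probe was used, and the brightest probe of each of the 10 genes was well above background on all 15 arrays.

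Class I molecules present peptides to CD8 T cells and are carried by nearly all nucleated cells, fibroblasts included. Proteasomes cut cytosolic proteins into peptides, the transporter TAP moves these into the endoplasmic reticulum, tapasin (the product of Tapbp) holds TAP close to an empty class I molecule, and ERAP1 trims the peptides to fit. Interferons and NF-kB signalling are the known inducers of this pathway, and cells exposed to them exchange the constitutive catalytic subunits of the proteasome for the immunoproteasome subunits.

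Gene expression was measured on 15 one-color arrays in 5 groups of 3 arrays, in MEFs that are an established mouse line (labelled 3T3; Balb/c/3T3 clone A31 in the methods of the study), so that all groups come from 1 clone. Controls were untreated MEFs, and the other groups were MEFs treated by TNFα (10 ng/ml), IL-1β (1 ng/ml), IL-6 (20 ng/ml) with its soluble receptor sIL-6Rα (25 ng/ml) or TGFß1 (5 ng/ml). The labels give 24 or 72 h of culture without saying which applies to an array. For the arrays of controls, TNFα and TGFß1, the study names the shorter of these times. Arrays are named by their group and the number that opens their label. For those 3 groups the study states independent experiments, but nothing says so for the IL-1β and IL-6 arrays, whose spread may be technical. In the main fit all groups share 1 estimate of the spread per gene. The p-values of every comparison, also of TNFα or TGFß1 against controls, therefore rest in part on the IL-1β and IL-6 arrays. Such p-values measure only the spread between these samples.

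On each array, 48.3% to 54.8% of 56605 probes were well above background, and no spot was saturated. The arrays lay on 2 slides of 8 and 7 arrays, both holding all groups. In the label numbers, the 5 groups recur in the same order from 1 to 5, from 6 to 10 and again from 11 to 15, and these 3 sets are called runs. All 9 fibroblast markers were well above background on every array. Of 9 leukocyte markers, 4 to 5 were above background per array, with summed log2 levels of 3.41 to 4.50 in controls, 3.62 to 4.56 with TNFα and 3.63 to 4.44 with TGFß1, and Cd68, Csf1r, Itgam and Cd3e, markers of macrophages and T cells, were above background on all 15 arrays and called with 0 of the 4 cytokines. Ptprc, Adgre1, Itgax and Lyz2, further markers of leukocytes and macrophages, were above background on 0 arrays. Of 4 endothelial markers, 1 was above background on every array, and of 4 epithelial markers 2 to 3 were above background on the TGFß1 arrays against 0 to 2 elsewhere. The part of these markers in the results was not tested.

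In the mouse reference assembly GRCm38.p6, 7 of the 10 genes lie on chromosome 17, in the MHC. These are Tapbp (chr17:33919478-33929290), H2-K1 (chr17:33996012-34000619), Psmb9 (chr17:34182030-34187330), Tap1 (chr17:34187556-34197225), Psmb8 (chr17:34198195-34201454), Tap2 (chr17:34204479-34216321) and H2-D1 (chr17:35263094-35267497). B2m lies at chr2:122147687-122153082, Psmb10 at chr8:105935728-105938392 and Erap1 at chr13:74639573-74693205. Promoter windows of 300 bases (250 before to 50 after the annotated start, from RefSeq on the same assembly, which is of C57BL/6J and not of the Balb/c line) were at hand for 9 of the 10 genes, all but Tap2. A search of both strands for a core of NF-kB sites (GGGA, any 4 bases, CC) matched 3 of these 9 genes, H2-K1, H2-D1 and B2m, and 20.7% of all 32851 windows of this length. A core of the interferon-stimulated response element (GAAA, any 2 bases, GAAA) matched B2m and Erap1 and 3.44% of all windows. TTCNNNGAA, the gamma-activated site bound by STAT proteins, matched Psmb8 and 8.30% of all windows. Such a match describes the letters of the reference and is neither a site nor a cause. Only these exact letters were searched, so a window without a match may still hold a site with other letters. The windows of Psmb10 and Tapbp, genes that rose with TNFα, hold 0 matches to the 3 motifs, as do those of Tap1 and Psmb9. A second window of H2-K1 (chr17:34000284-34000583), from another annotated start, overlaps the first, holds the same matched letters and is not shown. Shown here, so that the matched letters can be read, are 4 windows with a match to the NF-kB core or the interferon element, 1 for each gene. Each is printed on the strand of its gene from 5′ to 3′ with the matched stretches in capitals. They lie at chr17:34000298-34000597 (H2-K1, minus strand), chr17:35262844-35263143 (H2-D1, plus strand), chr2:122147437-122147736 (B2m, plus strand) and chr13:74639603-74639902 (Erap1, plus strand).
H2-K1: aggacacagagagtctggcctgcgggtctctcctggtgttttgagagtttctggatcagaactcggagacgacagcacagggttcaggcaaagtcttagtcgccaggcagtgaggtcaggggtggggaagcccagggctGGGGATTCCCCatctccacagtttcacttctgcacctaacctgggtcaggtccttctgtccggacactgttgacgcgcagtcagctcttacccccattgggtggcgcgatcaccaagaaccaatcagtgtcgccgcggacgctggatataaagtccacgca
H2-D1: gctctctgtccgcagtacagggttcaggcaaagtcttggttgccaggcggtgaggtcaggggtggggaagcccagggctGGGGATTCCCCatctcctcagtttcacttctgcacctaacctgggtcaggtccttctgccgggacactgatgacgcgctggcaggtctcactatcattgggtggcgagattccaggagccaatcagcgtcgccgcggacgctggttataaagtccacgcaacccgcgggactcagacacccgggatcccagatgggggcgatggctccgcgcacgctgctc
B2m: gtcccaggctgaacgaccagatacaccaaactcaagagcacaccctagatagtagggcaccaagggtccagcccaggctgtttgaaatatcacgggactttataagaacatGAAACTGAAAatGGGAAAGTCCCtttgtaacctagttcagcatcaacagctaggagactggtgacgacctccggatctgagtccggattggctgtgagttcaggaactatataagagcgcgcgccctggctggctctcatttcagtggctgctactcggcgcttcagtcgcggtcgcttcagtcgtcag
Erap1: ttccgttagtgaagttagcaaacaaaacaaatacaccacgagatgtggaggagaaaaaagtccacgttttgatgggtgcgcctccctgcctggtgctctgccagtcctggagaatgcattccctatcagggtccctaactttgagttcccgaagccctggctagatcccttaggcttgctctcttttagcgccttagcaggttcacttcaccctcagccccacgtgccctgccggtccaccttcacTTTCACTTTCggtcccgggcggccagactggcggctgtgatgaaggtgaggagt

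H2-K1 and H2-D1 carry the same matched letters, where the pattern matches on both strands, so that overlapping matches are shown as 1 stretch. In the window of B2m, the match to the interferon element ends 2 bases before the match to the NF-kB core. Tap1 and Psmb9 start 226 bases apart on opposite strands of chromosome 17, and their windows share 275 bases. The window of Tap1 (chr17:34187306-34187605, plus strand) is shown for this shared stretch, in which none of the 3 motifs matched.
Tap1: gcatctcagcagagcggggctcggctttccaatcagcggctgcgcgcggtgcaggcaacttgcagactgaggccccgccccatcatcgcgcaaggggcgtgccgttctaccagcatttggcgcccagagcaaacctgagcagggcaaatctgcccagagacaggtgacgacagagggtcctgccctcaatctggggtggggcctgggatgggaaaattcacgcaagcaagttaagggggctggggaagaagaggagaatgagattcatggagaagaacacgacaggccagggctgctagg

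The first question was how the pathway responds to TNFα. Against controls, 8 of the 10 genes rose in MEFs treated by TNFα and 0 fell, where called means q below 0.05 (limma, Benjamini-Hochberg over all 29333 probes tested) and a fold-change of at least 1.5. Over all probes, 4.09% were called higher and 5.96% lower. The median log2 fold-change of the 10 genes was 1.10, and that of all probes was 0.04. For all 10 genes every TNFα array lay above every control array, which held for 13.1% of all probes. The estimate was largest for Psmb10, and that of the light chain B2m was below those of both heavy chains. Differences between genes were not tested. RNA of whole cultures was measured, so a larger share of cells expressing a gene cannot be told apart from more RNA per cell.

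**Figure D1:**
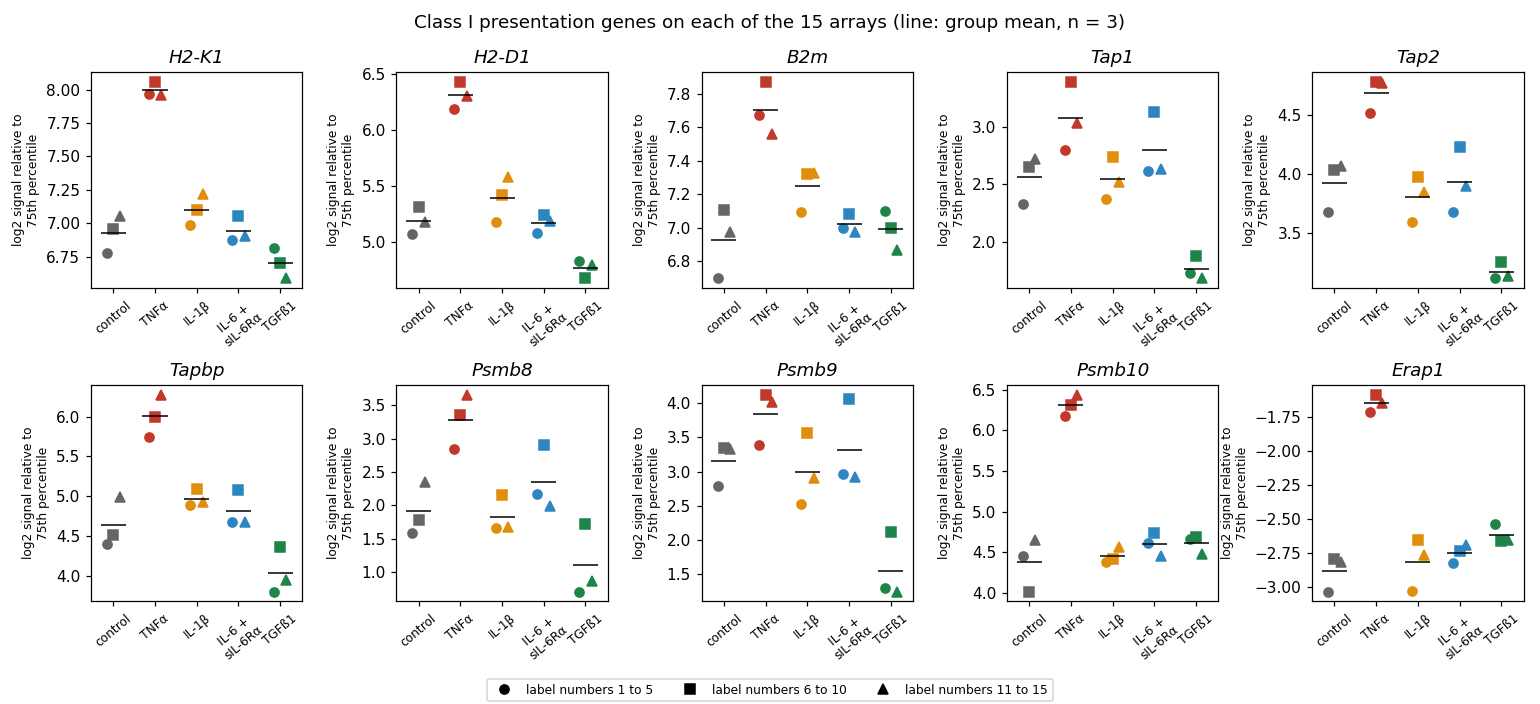
Level of each of the 10 genes on every array, as log2 signal relative to the 75th percentile of the array (y axis, its own range for each gene), by group (x axis), with 1 point per array, the point shape giving the run of label numbers and the line the group mean (n = 3). The 3 TNFα points of every gene lie above its 3 control points, and the TGFß1 points of H2-D1, Tap1, Tap2, Tapbp and Psmb9 lie below all other points.

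Both heavy chains responded. H2-K1, a classical heavy chain, had log2 levels relative to the 75th percentile of 6.78, 6.96 and 7.05 on control arrays 1, 6 and 11 and of 7.97, 8.06 and 7.96 on TNFα arrays 4, 9 and 14. On IL-1β arrays 5, 10 and 15 it stood at 6.99, 7.10 and 7.22, on IL-6 arrays 3, 8 and 13 at 6.88, 7.05 and 6.90, and on TGFß1 arrays 2, 7 and 12 at 6.82, 6.70 and 6.59. Only the TNFα arrays stood apart from all others, and the remaining groups overlapped except TGFß1, which lay below both IL groups. The log2 fold-change with TNFα was 1.07 ± 0.11 (SE, q = 6.5e-05), which is 2.09-fold, and the second H2-K1 probe gave 1.13.

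H2-D1, the other classical heavy chain, had levels of 5.07, 5.31 and 5.18 on the control arrays and of 6.19, 6.43 and 6.31 on the TNFα arrays, in the same order of arrays. Its levels were 5.18, 5.42 and 5.59 with IL-1β, 5.08, 5.25 and 5.19 with IL-6 and 4.83, 4.68 and 4.80 with TGFß1. The TNFα arrays were the highest and the TGFß1 arrays the lowest, neither overlapping any other group. With TNFα the log2 fold-change was 1.12 ± 0.12 (SE, q = 9.1e-05). Class I heavy chains are close copies of each other and the line carries another H2 haplotype than the reference strain, so signal shared between H2 probes cannot be separated here.

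B2m, the light chain that every classical class I molecule needs to reach the cell surface, had levels of 6.70, 7.11 and 6.97 in controls and of 7.67, 7.87 and 7.56 with TNFα. With IL-1β it stood at 7.10, 7.32 and 7.33, with IL-6 at 7.00, 7.08 and 6.97, and with TGFß1 at 7.10, 7.00 and 6.87. TNFα arrays were above all others, and the other groups overlapped apart from IL-1β, which was above IL-6 on every array. The TNFα difference was 0.78 ± 0.13 (SE, q = 0.0021) on the log2 scale, or 1.71-fold.

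Peptide supply and loading showed a wider range. Tap1, one chain of the peptide transporter, had levels of 2.33, 2.65 and 2.72 in controls, 2.80, 3.39 and 3.04 with TNFα and 1.73, 1.88 and 1.68 with TGFß1. In the IL-1β group it read 2.37, 2.74 and 2.52, and in the IL-6 group 2.62, 3.13 and 2.64. TNFα arrays overlapped the IL-6 arrays, and TGFß1 arrays lay below all 12 others. The log2 fold-change of Tap1 with TNFα, 0.51 ± 0.19 (SE, q = 0.0996), did not pass the test, and the second Tap1 probe gave 0.37.

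Tap2, the other chain, read 3.68, 4.04 and 4.07 in controls, 4.52, 4.78 and 4.78 with TNFα and 3.12, 3.26 and 3.14 with TGFß1. Its levels were 3.60, 3.98 and 3.85 with IL-1β and 3.68, 4.23 and 3.90 with IL-6. TNFα arrays were the highest and TGFß1 arrays the lowest with no overlap. Tap2 rose with TNFα by 0.76 ± 0.16 (SE, q = 0.0088) on the log2 scale, a call that was lost when arrays were centred on their median (0.66, q = 0.0531).

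Tapbp encodes tapasin, which tethers class I molecules to TAP. It read 4.40, 4.51 and 4.99 in controls, 5.74, 6.00 and 6.27 with TNFα and 3.80, 4.37 and 3.94 with TGFß1, against 4.89, 5.09 and 4.93 with IL-1β and 4.68, 5.08 and 4.68 with IL-6. TNFα arrays were again apart from all others, and TGFß1 arrays were below all others, array 7 only just below control array 1. The log2 fold-change with TNFα was 1.37 ± 0.20 (SE, q = 0.00079), and its second probe gave 1.31. Erap1, the peptidase that shortens peptides in the endoplasmic reticulum, had levels of -3.03, -2.79 and -2.82 in controls and -1.72, -1.59 and -1.65 with TNFα. The remaining 9 arrays lay between -3.03 and -2.54. Its rise with TNFα was 1.23 ± 0.12 (SE, q = 3.1e-05) on the log2 scale, or 2.35-fold. Erap1 had the lowest levels of the 10 genes, and the size of its rise depended on the setting. Over 17 other settings, leaving out arrays included, the rise ran from 0.75 to 1.27 and was called in each.

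The estimates for the 3 immunoproteasome subunits differed in size and spread. Psmb10, which takes the place of the constitutive β2 subunit, read 4.46, 4.01 and 4.65 in controls and 6.18, 6.32 and 6.44 with TNFα, and its other 9 arrays lay between 4.38 and 4.73. Its rise, 1.94 ± 0.15 (SE, q = 8.4e-06) on the log2 scale or 3.84-fold, was the largest of the 10 with the lowest q. Psmb8, which replaces the β5 subunit, read 1.59, 1.79 and 2.35 in controls, 2.85, 3.35 and 3.65 with TNFα, 1.65, 2.16 and 1.68 with IL-1β, 2.17, 2.91 and 1.99 with IL-6 and 0.71, 1.72 and 0.87 with TGFß1. TNFα arrays were above controls, IL-6 array 8 reached into the TNFα range, and TGFß1 array 7 lay among the controls. The rise with TNFα was 1.37 ± 0.33 (SE, q = 0.0154), and the call was lost without control array 1 (1.22, q = 0.0584) or without TNFα array 14 (1.19, q = 0.0582).

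Psmb9, which replaces the β1 subunit, read 2.79, 3.35 and 3.33 in controls, 3.40, 4.12 and 4.01 with TNFα, 2.53, 3.56 and 2.90 with IL-1β, 2.97, 4.06 and 2.93 with IL-6 and 1.29, 2.11 and 1.24 with TGFß1. TNFα arrays were all above the controls, TNFα array 4 by a narrow margin, and TGFß1 arrays were below every other array. The log2 fold-change with TNFα, 0.69 ± 0.36 (SE, q = 0.264), did not pass the test, with a 95% interval of -0.11 to 1.48. In every group the highest Psmb9 array was the one labelled 6 to 10. With these runs as a block beside the slide the difference was 0.78 (q = 0.0024) and was called, and with the runs alone it was 0.69 (q = 0.0324), also called. The fit with the runs alone, here and below, was chosen after the data were seen.

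The constitutive subunits that the immunoproteasome subunits replace gave no call. With TNFα, the log2 fold-changes were -0.10 for Psmb5 (β5), 0.11 for Psmb6 (β1) and 0.06 for Psmb7 (β2), and with TGFß1 they were 0.19, 0.29 and 0.30. Of 16 other core and assembly genes of the 20S proteasome tested, 0 were called with any of the 4 cytokines. Their largest log2 fold-change was 1.33 with TNFα and 1.57 with TGFß1, so a missing call does not show a lack of change. The median of these genes with TGFß1 was 0.26, beside 0.07 over all probes. Psme1, a subunit of the PA28 activator of the proteasome, had log2 fold-changes of 0.67 with TNFα (q = 0.0706) and -0.49 with TGFß1 (q = 0.128), neither of them called. After quantile normalization the TGFß1 difference was called (-0.62, q = 0.0384). With the runs as a block the TNFα difference was called (q = 0.0365), as it was without control array 11 (0.89, q = 0.0237).

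**Figure D2:**
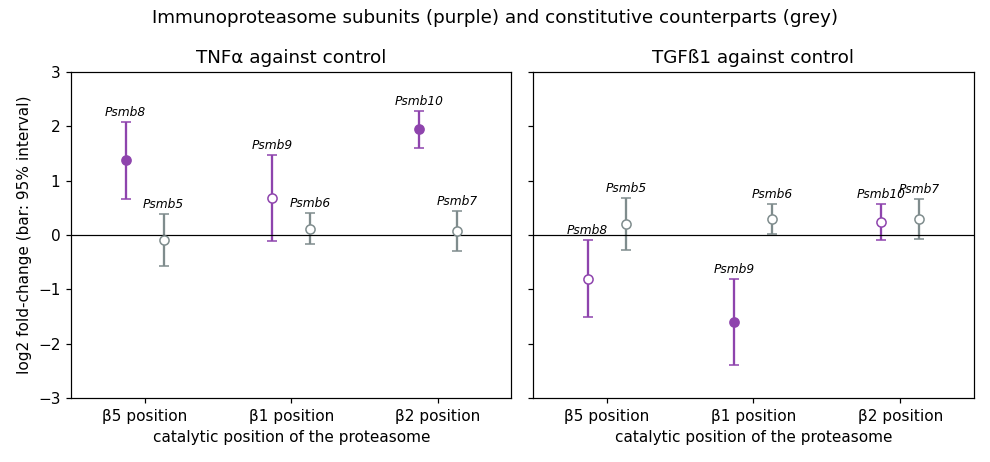
Log2 fold-change against control (y axis) of each immunoproteasome subunit (purple) beside the constitutive subunit it replaces (grey), at the 3 catalytic positions (x axis), for TNFα (left) and TGFß1 (right). Bars are 95% intervals of limma and filled points were called, which are Psmb8 and Psmb10 with TNFα and Psmb9 with TGFß1, while the grey points lie between -0.10 and 0.30.

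The second question was how the pathway responds to TGFß1. Of the 10 genes, 4 fell and 0 rose against controls, where 10.4% of all probes were called lower and 7.51% higher. The median log2 fold-change of the 10 genes was -0.51, beside 0.07 over all probes. The 4 that fell were Psmb9 (-1.61 ± 0.36, q = 0.0073), Tap1 (-0.80 ± 0.19, q = 0.0080), Tap2 (-0.76 ± 0.16, q = 0.0055) and Tapbp (-0.60 ± 0.20, q = 0.0469), with errors as SE. Psmb9 was 3.05-fold lower than in controls. For 5 genes every TGFß1 array lay below every control array (18.9% of all probes), the fifth being H2-D1, and for 1 gene, Erap1, every TGFß1 array lay above (19.9% of all probes).

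The second Tap1 and Tapbp probes also fell with TGFß1, by 0.98 and 0.66 on the log2 scale. The Tapbp call at its brightest probe was close to the threshold. It was lost with arrays centred on their median (q = 0.155), with no filter on dim probes (q = 0.107), in the fit of 6 arrays (q = 0.118) or of 9 arrays (q = 0.0898), and, with a fold-change under 1.5, with the slide as a block, alone (-0.51) or beside the runs (q = 0.0013). It was also lost without control array 6 (-0.66, q = 0.0654), control array 11 (-0.42, q = 0.169), TGFß1 array 2 (-0.48, q = 0.171) or TGFß1 array 12 (-0.55, q = 0.131).

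Among the genes not called with TGFß1, H2-D1 differed by -0.42 ± 0.12 (SE, q = 0.0264), under the fold-change threshold, and by -0.60 after quantile normalization, where it was called. Psmb8 had -0.81 ± 0.33 (SE, q = 0.0916), and was called without TGFß1 array 7 (-1.12, q = 0.0294), with the runs as a block (q = 0.0400) and with slide and runs as blocks (-0.64, q = 0.0015). H2-K1 had -0.23, B2m 0.06, Psmb10 0.23 and Erap1 0.26, with q values of 0.159, 0.753, 0.305 and 0.120. The 95% intervals of B2m (-0.22 to 0.35) and Psmb10 (-0.10 to 0.57) exclude a fall of the size of Tap1.

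**Figure D3:**
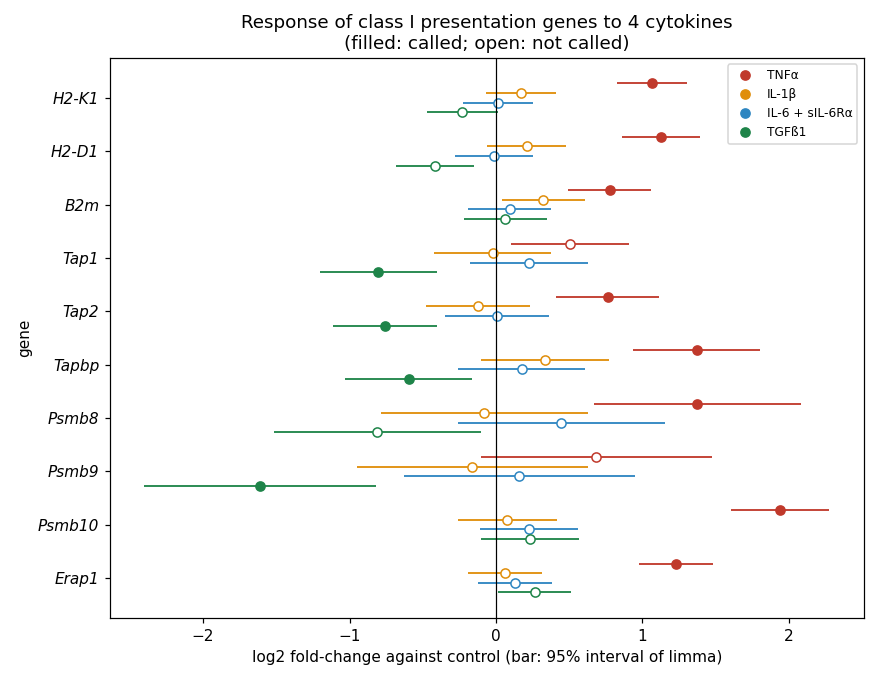
Log2 fold-change against control (x axis) of the 10 genes (y axis) for the 4 cytokines, with 95% intervals of limma as bars and filled points for calls. The 8 filled TNFα points lie between 0.76 and 1.94, the 4 filled TGFß1 points between -1.61 and -0.60, and all IL-1β and IL-6 points are open.

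With IL-1β and with IL-6 plus its receptor, 0 of the 10 genes were called by limma against controls. At an unadjusted p under 0.05 there was 1 gene with IL-1β, B2m (0.32 ± 0.13, SE, q = 1.00), and 0 with IL-6. Over all probes, 0.228% were called higher and 0.00341% lower with IL-1β, and 0.058% higher and 0% lower with IL-6. Log2 fold-changes of the 10 genes ran from -0.16 to 0.33 with IL-1β and from -0.02 to 0.45 with IL-6. For 0 genes did the arrays of either group lie wholly above or below the controls, against 3.16% and 2.17% of all probes with IL-1β and 2.58% and 2.47% with IL-6. The 95% interval reached 0.24 to 0.79 on either side, the widest being that of Psmb9, from -0.95 to 0.63 with IL-1β and from -0.63 to 0.95 with IL-6.

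Direct comparisons between cytokines were made at the doses given above, which differ, and share arrays with the comparisons against controls. TNFα gave the highest mean in 10 of the 10 genes, TGFß1 the lowest in 7, and controls the lowest in B2m, Psmb10 and Erap1. Against TGFß1, all 10 genes were higher with TNFα (6.61% of all probes), from 0.71 for B2m to 2.30 for Psmb9 (q = 8.5e-04) on the log2 scale. Psmb8 differed by 2.18, Tapbp by 1.97 and Psmb10 by 1.71. Against IL-1β, 7 were higher with TNFα (1.68% of all probes), from 0.88 for Tap2 to 1.86 for Psmb10, and B2m (0.45, q = 0.0659), Tap1 (0.53, q = 0.130) and Psmb9 (0.85, q = 0.228) were not called. Against IL-6, 7 were higher (3.45% of all probes), from 0.68 for B2m to 1.71 for Psmb10, and Tap1 (0.28, q = 0.412), Psmb8 (0.93, q = 0.0969) and Psmb9 (0.53, q = 0.436) were not called. Some calls were lost under other settings. Psmb8 against IL-1β was lost with no filter on dim probes (q = 0.0527). It was also lost without TNFα array 9 or 14 or IL-1β array 5 or 15 (q of 0.0676 to 0.0798). With arrays centred on their median, Tapbp against IL-1β (q = 0.0512) and Tap2 against IL-6 (q = 0.0524) were lost. Tap2 against IL-6 was also lost in the fit of 6 arrays (q = 0.0575). With blocks, some differences not called in the main fit were called. Psmb8 against IL-6 was called with the slide (1.09, q = 0.0159), with the runs (0.93, q = 0.0363) and with both as blocks (1.10, q = 1.2e-04). Psmb9 was called against IL-1β with the runs (0.85, q = 0.0186) and with both (0.94, q = 0.0015), and against IL-6 with both (0.62, q = 0.0084).

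IL-1β against TGFß1 gave 5 genes higher with IL-1β (10.2% of all probes): Psmb9 (1.45), Tapbp (0.93), Tap1 (0.78), Tap2 (0.64) and H2-D1 (0.63). IL-6 against TGFß1 also gave 5 genes higher with IL-6 (9.69% of all probes): Psmb9 (1.77), Psmb8 (1.25), Tap1 (1.03), Tapbp (0.77) and Tap2 (0.76). The count for IL-1β was 2 without IL-1β array 10 and 3 without TGFß1 array 2, and the count for IL-6 was 3 without IL-6 array 8, without TGFß1 array 2 or without TGFß1 array 12. Between IL-1β and IL-6, limma called 0 genes (0.252% of all probes higher and 0.147% lower), also 0 at an unadjusted p under 0.05, with log2 differences from -0.52 for Psmb8 to 0.23 for B2m. In the order of group means, neighbours other than the first pair and the last pair were called for 0 genes. The step from TNFα to the next group was called in H2-K1, H2-D1, Tap2, Tapbp, Psmb10 and Erap1, and the step down to TGFß1 at the bottom in Tap1, Tap2, Tapbp and Psmb9.

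Slides and runs moved with some of these values. The highest array of a group carried a label of 6 to 10 in 5 of 5 groups for Psmb9 and in 4 of 5 groups for Tap1 and for Tap2. Within each slide and within each run, every gene called in a comparison kept its direction. Within the 3 runs, the TNFα minus control difference of the 8 called genes lay between 0.84 and 1.73, between 0.75 and 2.31 and between 0.59 and 1.79. The TGFß1 minus control difference of Tapbp was -0.60, -0.14 and -1.05 in the 3 runs and that of Psmb8 was -0.88, -0.07 and -1.48, the smallest of each in the run labelled 6 to 10. For Psmb9 these differences ran from -1.24 to -2.09. What sets the runs apart was not tested.

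**Figure D4:**
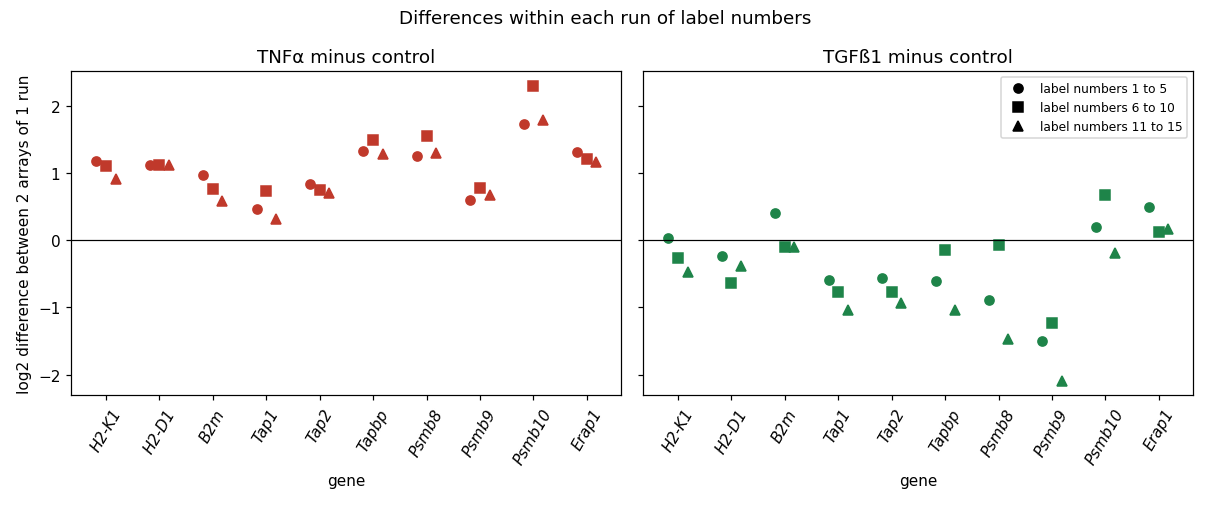
Log2 difference between the treated array and the control array of the same run of label numbers (y axis) for the 10 genes (x axis), TNFα on the left and TGFß1 on the right, with 1 point per run. All TNFα points lie above 0, and for H2-D1, Tap1, Tap2, Tapbp, Psmb8 and Psmb9 all TGFß1 points lie below 0.

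Genes around the pathway were read from lists. Over all probes, 4.09% were called higher and 5.96% lower with TNFα, and 7.51% higher and 10.4% lower with TGFß1. The counts of every list that follows stand beside these shares, and whether a list differs from them was not tested. Of 13 other class I heavy chains tested, 10 rose with TNFα and 0 fell (median log2 fold-change 0.89), and 3 fell with TGFß1 and 0 rose (median -0.44). H2-Q5, of the Q region, rose by 2.07 ± 0.24 (SE, q = 1.3e-04) with TNFα and fell by 0.72 with TGFß1 (q = 0.0447). That fall was not called without control array 1 or 6 or TGFß1 array 7 or 12 (q of 0.0747 or more), nor after normexp (-0.33). The call was also lost with arrays centred on their median (q = 0.0528), with no filter on dim probes (q = 0.0992) and in the fit of 6 arrays (q = 0.0739). H2-T10 and H2-T22, nonclassical heavy chains, rose by 0.86 and 0.83 with TNFα and fell by 1.15 and 1.21 with TGFß1. H2-T23, which encodes the Qa-1 molecule, rose by 0.87 with TNFα and had -0.37 with TGFß1 (q = 0.0550). Of the 4 other partners of B2m tested, 0 rose and 1 fell with TNFα. That gene was Fcgrt, the heavy chain of the neonatal Fc receptor, which fell by 1.25, and it fell by 1.26 with TGFß1 beside Hfe, which fell by 1.24. Cd1d1, a lipid-presenting molecule, rose with TGFß1 by 2.62 ± 0.36 (SE, q = 3.0e-04), from a mean level of -2.49 in controls to 0.13.

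Of 9 genes of peptide loading and folding in the endoplasmic reticulum, 1 rose with TNFα, Tapbpl (0.71, q = 0.0494), which encodes the tapasin-related protein TAPBPR, and 0 were called with TGFß1, where Tapbpl had -0.63 (q = 0.0516). Of 8 cytosolic and other peptidases, 0 were called with TNFα and 1 rose with TGFß1, the aminopeptidase gene Lap3 (0.91). Class II presentation gave another picture. Of 5 genes tested, Cd74, the invariant chain, rose with TNFα by 2.49 ± 0.34 (SE, q = 4.8e-04), while H2-DMa and H2-DMb1, the chains of the peptide editor of class II, fell by 1.09 and 1.41. H2-Ab1, a chain of the class II molecules, was not called with TNFα (-0.13, q = 0.845) or TGFß1 (-0.66, q = 0.170). H2-Aa and H2-Eb1, further chains, and their transactivator Ciita were not well above background on any array.

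Among 17 transcription factors of class I genes tested, 5 rose with TNFα and 1 fell, and 0 rose and 4 fell with TGFß1. Irf1, an interferon regulatory factor, rose with TNFα by 1.51 ± 0.15 (SE, q = 3.8e-05), from 4.13 to 4.56 over the control arrays to 5.79 to 5.89. Relb, Nfkb2 and Nfkb1, subunits of NF-kB, rose by 1.94, 1.46 and 1.10, and Rfx5, a factor of class I and class II promoters, by 0.95. Relb also rose with IL-1β, by 1.21 (q = 0.0104), a call lost without IL-1β array 5 (q = 0.0613) or 10 (q = 0.0541). That call was also lost with arrays centred on their median (q = 0.273) and in the fit of 6 arrays (q = 0.195). Relb fell by 0.62 with TGFß1 (q = 0.0205), a call lost without control array 1 or 11 or TGFß1 array 2 or 12 (q of 0.0577 to 0.0771). The call was also lost with arrays centred on their median (q = 0.146), with no filter on dim probes (q = 0.0533) and in the fit of 6 arrays (q = 0.0600). After normexp (-0.58) and with the slide as a block, alone (-0.52) or beside the runs (-0.51), the fold-change was under 1.5. Stat2, which carries interferon signals, fell with TGFß1 from a mean of 4.41 to 2.92 (q = 0.0019) and had 0.05 with TNFα, not called. Irf9, its partner, fell by 0.96, and Stat3, which carries IL-6 signals, by 0.82. Stat3 was also the 1 factor that fell with TNFα. Nlrc5, the transactivator of class I genes, had 0.76 with TNFα (q = 0.158) and -0.73 with TGFß1 (q = 0.125), neither called, while both were called with the runs as a block (q = 0.0163 and 0.0131).

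Of 10 interferon ligands, receptors and regulators tested, 3 were called higher with TNFα. Ifnb1, which encodes interferon β, was not well above background on the control arrays and reached -3.83 with TNFα, at least 1.98-fold higher, where the bound sets the lowest signal well above background on each control array against the TNFα mean. It passed the filter on dim probes only through the TNFα arrays, so its call is no support for a change. The call (q = 0.0268) was lost without that filter (q = 0.0587) and after normexp (0.68, q = 0.0645). It was also lost when any 1 of the 3 control or 3 TNFα arrays was left out (q of 0.0528 to 0.0770). On IL-1β array 15 Ifnb1 was also well above background, at -2.76, while IL-1β arrays 5 and 10, at -7.27 and -7.31, were not. Ifngr2, a chain of the interferon γ receptor, rose by 0.84 and the feedback inhibitor gene Socs1 by 0.88. With IL-6, Socs3, the feedback inhibitor of IL-6 signalling, rose by 2.39 ± 0.21 (SE, q = 0.0016), from a mean of 2.84 in controls to 5.23, while 0 of the 10 class I genes were called on the same arrays. The Socs3 call was lost in the fit of 6 arrays (q = 0.320).

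**Figure D5:**
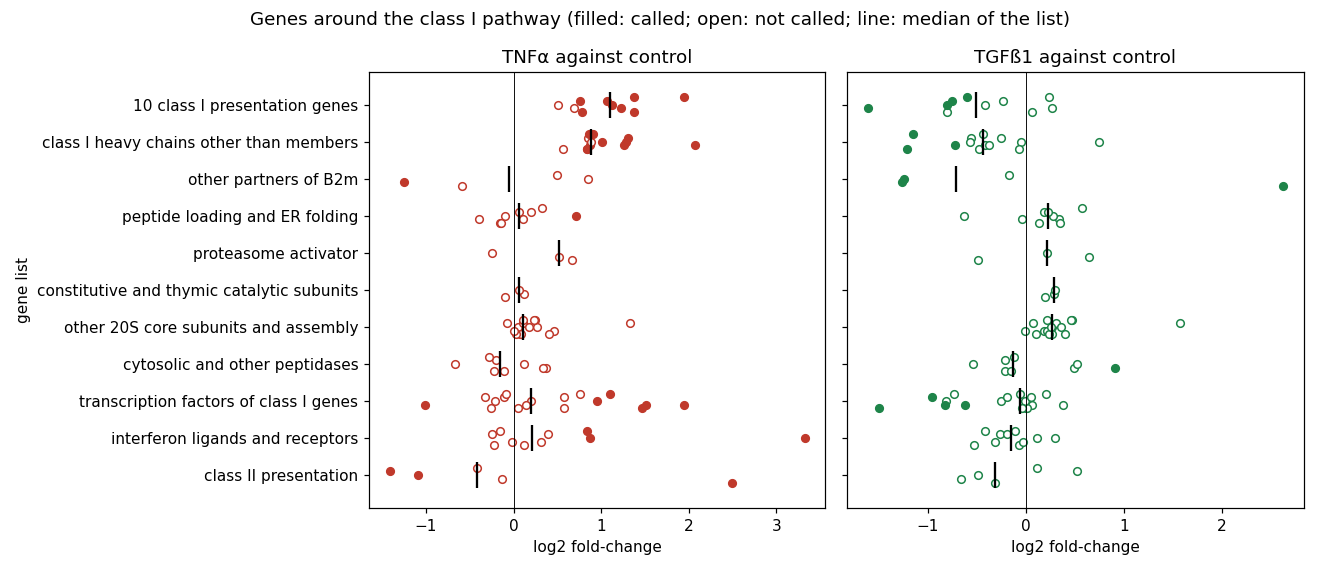
Log2 fold-change against control (x axis) of every tested gene of each list (y axis) for TNFα (left) and TGFß1 (right), with filled points for calls and a line at the median of each list. With TNFα the medians of the 10 class I genes and of the other heavy chains are 1.10 and 0.89, and the rightmost point, Ifnb1, is measured against control arrays below background.

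The genes whose pattern over the 15 arrays was most like that of a member were named by Pearson's r, as a description over arrays that share treatments, slides and runs. For B2m they were Slc15a3 (0.938), H2-Q8 (0.934), H2-K1 (0.930), Gng12 (0.929) and Gpr84 (0.928). For Tap1 they were Oas2 (0.987), Slfn8 (0.986), Trim30a (0.984), Trim30d (0.976) and its neighbour Psmb9 (0.974). For Psmb8 they were Igtp (0.967), Irgm2 (0.966), Psme1 (0.966), Slfn2 (0.961) and Tor3a (0.959).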

How the data were processed

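RNA of 15 samples was hybridized by the authors to one-color Agilent arrays (Cy3) and extracted with Agilent Feature Extraction 10.7.3.1. The deposited files hold scanner intensity per spot, and the processed signal used here is background-subtracted by that software and not normalized between arrays. The deposited value table held the same values (largest difference 0). Control spots were left out (59305 of 62976 spots kept), spots of a probe were averaged, and log2 of the processed signal was set relative to the 75th percentile of each array. To be tested, a probe had to exceed background clearly on all 3 arrays of some group (29333 probes did). Gene names came from RefSeq transcripts (33767 probes named, 251 RefSeq messenger RNA probes unmatched), with promoter windows from RefSeq on GRCm38.p6. A model with 1 coefficient per group was fitted to all 15 arrays (limma 3.58.1 in R 4.3.3), giving 10 two-sided comparisons with Benjamini-Hochberg adjustment over all probes, called at q below 0.05 and a fold-change of at least 1.5. The script was tested on simulated data for TNFα against controls alone. The simulated noise was independent between arrays, so the test did not cover what arrays of a slide or run share. The number of arrays limits the precision, and an exact permutation test of 3 against 3 arrays cannot go below p = 0.1. Alternatives were the slide and the runs of label numbers as blocks, quantile and median scaling, normexp (offset 50, on the median spot signal), other filters, fewer arrays, all probes of a gene and leaving out each array. Besides the 10 genes, those named are the 3 listed genes with the largest called change against control for each cytokine, plus Nlrc5, Irf1, Psme1 and Psmb5 to Psmb7, with 1 further gene not reported here, while other genes of the lists were named after their values were seen. Members and lists were chosen with earlier results of these data known.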

Additional observations from a re-analysis of the deposited data

How the results depend on the processing

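No value of the 10 genes reversed direction across a call. With TNFα against controls, the count of genes called was 7 to 9 over the alternatives (7 to 8 when 1 array was left out), with TGFß1 against controls 3 to 5 (3 to 5), with TNFα against TGFß1 9 to 10, against IL-1β 6 to 8 and against IL-6 6 to 9. With IL-1β or IL-6 against controls it was 0 in all of them. IL-1β against TGFß1 gave 3 genes with arrays centred on their median, and 2 to 5 when 1 array was left out, and IL-6 against TGFß1 gave 3 to 5 when 1 array was left out. No label number occurs in more than 1 group, so arrays were paired by run, with the runs of label numbers as a block. With the slide removed, all 30 pairs of arrays of 1 run and different groups deviated together (r of 0.114 to 0.671), against 2 of 60 pairs of different runs over 0.1, and without removing the slide the counts were 12 and 28. Deviations from a group mean sum to 0 in each group. Where pairs of 1 run deviate together, pairs of different runs therefore tend to deviate oppositely, so these counts are not independent. With slide and runs as blocks, 9 genes were called with TNFα and 4 with TGFß1 against controls (Psmb8 gained and Tapbp lost), and with the runs alone, an alternative chosen after seeing the data, 9 and 5. Without leaving out arrays, single genes kept their side of the threshold in 1002 of 1030 tests, 16 calls were lost and 12 gained. Many of these tests could hardly change a call. Using all probes leaves the values of genes with 1 tested probe as they were, and the stricter filter keeps all values. Some comparisons gave 0 calls in every alternative. Tapbp with TGFß1 against controls kept its call in 7 of 17 settings, leaving out arrays included. Erap1 missed the fold-change threshold for TNFα against TGFß1 after normexp (0.57). The cause of these changes was not tested.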
